A study of Homo sapiens with 12 samples.

Results

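Described here are 9 genes for secreted proteins of the acute-phase response, the complement system and protease inhibition in MDA-MB-231 cells: SAA1, SAA2, ORM1, SERPINA3, C3, CFB, C1R, C1S and SLPI. They were taken by symbol from the gene rows of the deposited read-count table, and all 9 symbols had a row among 26364. Of the 14184 genes with enough reads to be tested, 7 were of this group. CFB and ORM1 were not testable, with 0 reads in 12 and in 10 of the 12 libraries. MDA-MB-231 is an established human triple-negative breast cancer line. Replicate wells, 3 per group, were left without drug, given 1 µM dexamethasone (DEX), an agonist of the glucocorticoid receptor, given 8 µM SH4-54, a compound that blocks the transcription factors STAT3 and STAT5, or given both compounds, in each case for 24 h. What vehicle the wells without drug received is not stated by the sources used here. Because the replicates are labelled as wells of 1 line, the p-values measure the spread between wells.

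Acute-phase proteins are secreted mainly by the liver in inflammation and injury, and many epithelial and tumour cells make some of them. In hepatocytes, interleukin-6 acts through STAT3, interleukin-1 acts through NF-kB and C/EBP factors, and glucocorticoids enhance many of these responses through their receptor. Complement is a cascade of plasma proteases in which C1R and C1S open the classical pathway, CFB serves the alternative pathway, and both routes meet at C3. The protease inhibitors SERPINA3 and SLPI restrain enzymes released by neutrophils.

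Stretches upstream of 2 member genes are shown because the glucocorticoid receptor, STAT, C/EBP and NF-kB factors named above bind short DNA elements, and these are the tested members that have an entry in the RefSeq promoter table used (GRCh38.p14). Entries matched 4 of the 9 members, C1R with 2 starts, SERPINA3, CFB and ORM1. Each stretch is the 250 bases before an annotated start, written 5′ to 3′ on the gene's strand. The C1R stretches lie at chr12:7092446-7092695 and chr12:7091894-7092143 on the minus strand, and the SERPINA3 stretch at chr14:94612141-94612390 on the plus strand. Capitals mark matches, on either strand, to 4 elements: the glucocorticoid receptor palindrome (GNACA and TGTNC, 3 bases apart), the STAT palindrome (TTC and GAA, 3 bases apart), the C/EBP-type element (TTGC and AA, 2 bases apart) and the NF-kB-type element (GGG and CC, 5 bases apart), in which N is any base.
C1R start 1: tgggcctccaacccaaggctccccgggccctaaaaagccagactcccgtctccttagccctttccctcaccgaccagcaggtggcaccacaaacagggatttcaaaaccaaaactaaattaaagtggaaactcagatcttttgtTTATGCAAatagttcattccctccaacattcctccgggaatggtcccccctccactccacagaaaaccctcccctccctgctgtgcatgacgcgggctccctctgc
C1R start 2: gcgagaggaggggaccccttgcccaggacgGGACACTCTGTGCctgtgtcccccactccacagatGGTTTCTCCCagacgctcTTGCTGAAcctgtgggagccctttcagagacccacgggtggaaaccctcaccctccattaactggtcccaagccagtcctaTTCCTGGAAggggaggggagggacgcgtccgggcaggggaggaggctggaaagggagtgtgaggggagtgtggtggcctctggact
SERPINA3: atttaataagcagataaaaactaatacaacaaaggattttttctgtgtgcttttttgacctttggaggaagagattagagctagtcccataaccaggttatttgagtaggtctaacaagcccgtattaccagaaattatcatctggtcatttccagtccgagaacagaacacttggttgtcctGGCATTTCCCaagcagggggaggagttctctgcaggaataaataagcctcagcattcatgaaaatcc
The second C1R start held 1 match to each of the 4 elements, none of which overlapped another. They were the glucocorticoid receptor palindrome GGACACTCTGTGC at -220 to -208, an NF-kB-type match at -185 to -176, the C/EBP-type match TTGCTGAA at -167 to -160 and the STAT palindrome TTCCTGGAA at -86 to -78. The first C1R start held a C/EBP-type match at -106 to -99, and SERPINA3 held an NF-kB-type match, GGCATTTCCC, at -67 to -58. Among 35116 windows of the same length in the table, the glucocorticoid receptor palindrome was in 0.327%, the STAT palindrome in 6.57%, the C/EBP-type element in 9.05% and the NF-kB-type element in 54.4%. A match describes letters only. The count table has 1 row for C1R, so reads from its starts are pooled.

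**Figure D1:**
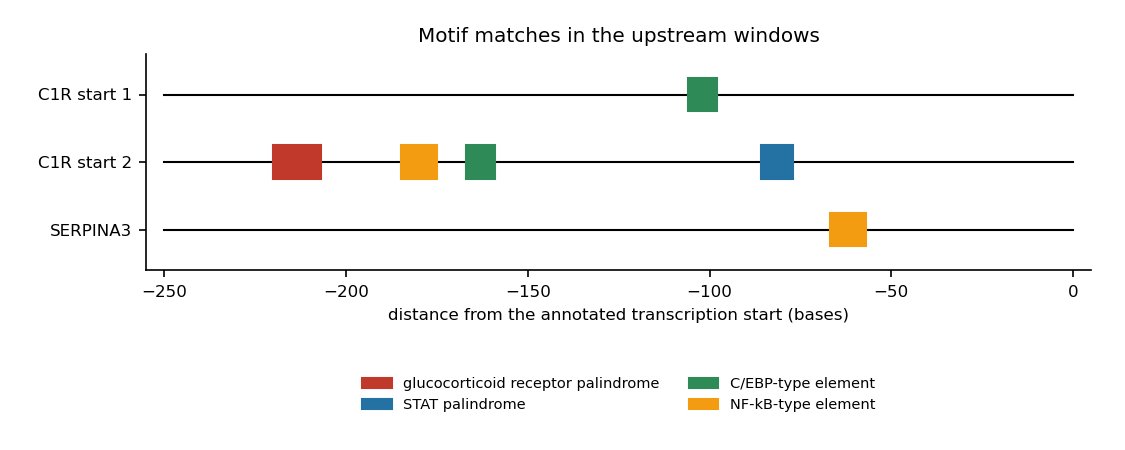
Positions of the motif matches in the 250 bases upstream of 2 annotated C1R starts and of SERPINA3. The horizontal axis is the distance in bases from the annotated start, and each colour is 1 motif; the second C1R start holds a match of every colour.

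The libraries held 25577213 to 35758236 counted reads, so that 1 read was worth 0.028 to 0.0389 CPM, the unit of reads scaled to library size and composition. All 8 mesenchymal marker genes of the line were above 1 CPM, with a summed level of 3774 to 4358 CPM. Of the receptor genes ESR1, PGR and ERBB2, 1 of 3 reached a mean of 1 CPM. The 5 luminal epithelial markers all reached it in some group, although GATA3 averaged 0.818 CPM without drug. Their sum of 661 to 906 CPM was mostly KRT8 and KRT18 (means of 381 and 341 CPM without drug). Hepatocyte markers were near 0: of ALB, APOA1, APOB, TTR, FGB and HP, 1 of 6 (FGB) reached 1 CPM, although none was 0 in every library. Their summed level was 1.16 to 1.72 CPM without drug, 2.0 to 2.84 with DEX, 1.65 to 2.01 with SH4-54 and 3.78 to 4.89 with both. Of 6 leukocyte genes, 1 (CD68) reached 1 CPM, and their sum was 36.2 to 39.2 CPM with DEX, 42.0 to 44.4 without drug, 47.2 to 47.9 with SH4-54 and 48.4 to 53.5 with both. Nearly all of that sum was CD68, with means of 37.2, 42.3, 46.2 and 49.2 CPM in the same order. The part of other cells in the results was not tested. Glucocorticoid target genes moved with the labels: FKBP5 was at 53.9 ± 1.6 CPM without drug and 326 ± 17.5 with DEX, and TSC22D3 at 6.81 ± 0.499 and 85.9 ± 1.91 CPM (mean ± SD, n = 3). The combination wells differed among themselves. Replicate 3 had the highest value of the 3 combination wells for 7 of the 7 tested members, by 1.41 times (C1R) to 2.16 times (SERPINA3) the lowest well, and also for FKBP5 (271 CPM, against 202 and 181). How many of all genes were highest in this well was not counted, so it is not shown to be a trait of the members. Where leaving out combination replicate 3 ended or made a member's call, both adjusted p-values are given.

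Wells with DEX were set against wells without drug for the effect of the glucocorticoid by itself. The 7 tested members rose, from 1.68-fold for C1R to 9.19-fold for SAA1. In each, the DEX wells lay above the wells without drug, and how often this held over all genes was not counted. Across all tested genes, 45.1% changed with DEX, 21.9% rising and 23.2% falling (edgeR quasi-likelihood test, adjusted p below 0.05). SERPINA3 passed the filter on low counts only through its DEX wells, so it had to differ there. Of the 6 members with at least 10 reads in every library, 6 rose. Their median log2 fold change was 1.97 against -0.011 over all genes tested. The members were chosen with earlier results of these data known. Counts of members beside all genes, here and below, therefore describe the group and are not an independent test. In whole cultures, more cells expressing a gene and more RNA per cell cannot be told apart.

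The serum amyloid A genes encode small apolipoproteins that ride on high-density lipoprotein in the acute phase. SAA1 was at 12.8, 15.4 and 16 CPM in the 3 wells without drug and at 135, 134 and 137 CPM with DEX. SH4-54 wells held 9.86, 13.1 and 13.9 CPM, and wells with both compounds 83.7, 70.2 and 107 CPM. The 3 DEX wells were almost equal, and the combination wells lay below them and far above every well without DEX. With DEX alone SAA1 had a log2 fold change of 3.20 ± 0.138 (± standard error; edgeR adjusted p = 1.30e-10). SAA2, its close paralogue, was at 4.44, 4.44 and 4.96 CPM without drug, 20.2, 21.3 and 20.6 with DEX, 3.95, 6.34 and 4.90 with SH4-54, and 12.7, 9.75 and 15.1 with both. Its DEX wells were again the highest and its combination wells the next, with a log2 fold change for DEX of 2.17 ± 0.152 (edgeR adjusted p = 2.24e-08).

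The measured rise with DEX was smaller for SAA2 than for SAA1. The SAA2 to SAA1 read ratio was 0.315 ± 0.0297 without drug, 0.153 ± 0.0053 with DEX, 0.412 ± 0.0658 with SH4-54 and 0.144 ± 0.0067 with both (SD, n = 3 each). The wells with and without DEX did not overlap in this ratio, and the exact two-sided permutation p was 0.1 both for DEX against no drug and for both compounds against SH4-54. That is the smallest value 3 against 3 wells can give, and after adjustment over 6 ratio tests it was 0.3. For both compounds against DEX alone the exact permutation p was 0.3. Reads of these genes are uncertain: of the distinct 50-base stretches in annotated SAA1 transcripts (GENCODE v29), 46.6% also occur in SAA2, and 17.9% of those of SAA2 occur in SAA1. How the authors counted reads with several matches is not known from the sources used here.

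SERPINA3 encodes alpha-1-antichymotrypsin, an inhibitor of chymotrypsin-like proteases such as cathepsin G. It was close to the detection limit, with 2, 2 and 2 reads in the wells without drug, 12, 16 and 11 with DEX, 2, 1 and 0 with SH4-54 and 3, 6 and 9 with both. The DEX wells had the most reads and the combination wells came next, with no overlap between those groups. Its scaled read ratio for DEX over no drug was 7.22, with an exact 95% counting interval of 3.03 to 20.9 (39 against 6 reads). The interval covers counting error only. Since the filter took this gene through its DEX wells alone, the ratio is a description, with no test. Of the 50-base stretches of its annotated transcripts 32% also occur in another gene, so its reads are uncertain. ORM1 encodes orosomucoid, a plasma acute-phase glycoprotein. It had 1 read in each of 2 combination wells and 0 elsewhere, under the floor of 3 reads (0.0841 to 0.117 CPM), so no fold is given. Its near copy ORM2 had 15 reads over all libraries, and 47.4% of the 50-base stretches of ORM1 transcripts are shared with it.

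C3, the protein on which the complement pathways converge, was at 3.60, 2.25 and 2.28 CPM without drug and 10.2, 8.08 and 9.76 CPM with DEX. SH4-54 wells held 2.78, 3.68 and 4.21 CPM and combination wells 3.30, 3.59 and 5.49 CPM. The DEX wells stood alone at the top, and the combination wells overlapped those with SH4-54 and those without drug. The log2 fold change for DEX was 1.77 ± 0.208 (edgeR adjusted p = 6.04e-06). C1R, the protease that starts activation within the C1 complex, was at 6.42, 5.20 and 4.39 CPM without drug, 9.52, 9.42 and 8.03 with DEX, 5.64, 5.22 and 5.52 with SH4-54, and 5.36, 5.14 and 7.23 with both. Its DEX wells were again above all others. C1S, the protease that C1R activates, was at 1.88, 1.16 and 1.62 CPM without drug, 2.86, 3.25 and 2.83 with DEX, 1.41, 2.21 and 2.12 with SH4-54, and 2.37, 1.49 and 2.72 with both.

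The C1 proteases had the smallest rises of the tested members, with log2 fold changes for DEX of 0.75 ± 0.142 for C1R (edgeR adjusted p = 0.000562) and 0.94 ± 0.229 for C1S (edgeR adjusted p = 0.0036). The ratio of C1S to C1R reads was 0.295 ± 0.0726 without drug and 0.333 ± 0.0279 with DEX (SD, n = 3), and that difference was within the spread of the wells (exact two-sided permutation p = 0.6, adjusted 0.72). CFB encodes factor B, the protease of the alternative pathway. Its row gave no measure of expression. Of 40 protein-coding genes around it in RefSeq gene order (20 on each side), 26 (65%) had 0 reads in all 12 libraries, against 9.49% of 19037 matched protein-coding genes. NELFE and SKIV2L, housekeeping genes within this stretch, were among those at 0, as were the complement genes C2, C4A and C4B. The cause was not tested.

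SLPI, a secreted inhibitor of neutrophil elastase made by epithelia, was at 5.32, 4.08 and 4.64 CPM without drug and 28.1, 28.8 and 30.2 CPM with DEX. SH4-54 wells held 5.05, 6.19 and 5.98 CPM, and combination wells 11.3, 9.89 and 19.9 CPM. Wells with both compounds lay between those with DEX and those without it, and replicate 3 was well above the other combination wells. The log2 fold change for DEX was 2.63 ± 0.201 (edgeR adjusted p = 5.76e-08). No 50-base stretch of its transcript was found in another gene, while 20.5% of those of C1R, 4.02% of those of C1S and 0.818% of those of C3 were.

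**Figure D2:**
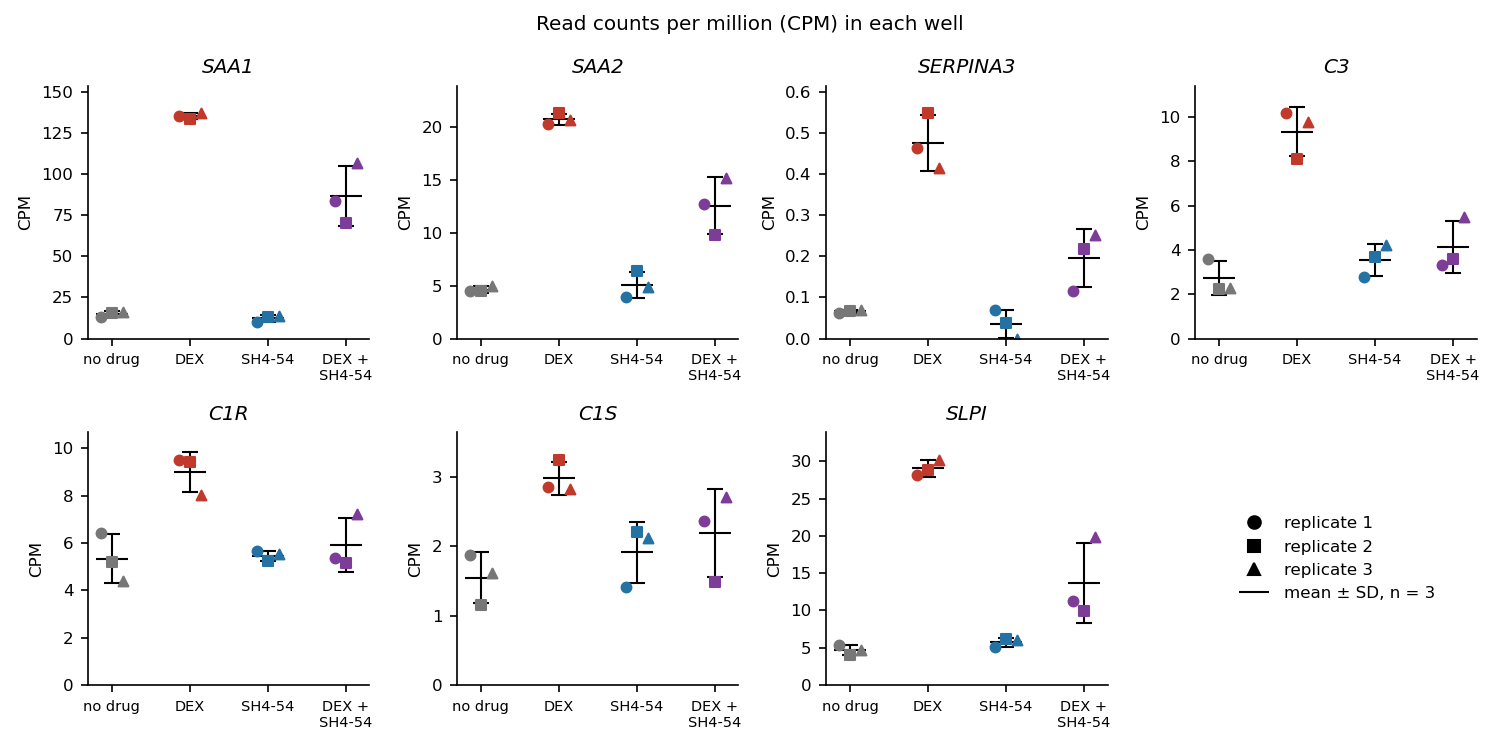
CPM of the 7 tested members in each of the 12 wells, by treatment group on the horizontal axis. Symbols are replicate wells and black bars mean ± SD (n = 3). For each gene the DEX wells are above all wells without DEX, and the triangle of combination replicate 3 is the highest of the combination wells. How often either held over all genes was not counted. For SERPINA3 the separation is favoured, because the count filter took it through its DEX wells alone.

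Per kilobase of annotated exon (GENCODE v29), the mean level without drug was 18.5 CPM for SAA1, 7.85 for SLPI, 2.07 for SAA2, 1.91 for C1R, 0.515 for C3, 0.423 for C1S and 0.0157 for SERPINA3. The wells of SAA2 and C1R overlapped on this scale, as did those of C3 and C1S. With DEX the means per kilobase were 170, 48.7, 9.29, 3.22, 1.77, 0.813 and 0.112 CPM in the same order, and no neighbours overlapped. The divisor joins all annotated exons of a gene, 796 bases for SAA1, 596 for SLPI, 2227 for SAA2 and 4232 for SERPINA3. Long annotated forms lower a gene's value whether or not they are made, so the order depends on the divisor. Before division SAA2 and SLPI were at 4.61 and 4.68 CPM without drug. The uncertainty of reads shared by SAA1 and SAA2 applies here too.

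SH4-54 alone was compared with no drug to ask what the inhibitor did without glucocorticoid. None of the tested members passed (0 of 7 by the edgeR quasi-likelihood test, 0 of 7 at an unadjusted p below 0.05 and 0 of 7 by DESeq2). Over all genes 0.599% passed, 0.268% higher and 0.331% lower. The log2 fold changes were -0.27 ± 0.155 for SAA1, 0.13 ± 0.175 for SAA2, 0.38 ± 0.231 for C3, 0.29 ± 0.244 for C1S, 0.03 ± 0.15 for C1R and 0.29 ± 0.236 for SLPI. The widest 95% interval among these was that of C1S, -0.228 to 0.813 on the log2 scale. SERPINA3, with 3 reads against 6, had a read ratio of 0.555 (exact 95% counting interval 0.0898 to 2.6).

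Adding SH4-54 to DEX was compared with DEX alone. SAA1, SAA2, C3, C1R and SLPI fell, 5 of the 6 tested members with at least 10 reads in every library, while 26.6% of all genes changed, 13% rising and 13.5% falling (edgeR adjusted p below 0.05). SERPINA3 passed as well, but the filter took it through its DEX wells alone, which favours a fall from them. This comparison shares the DEX wells with the comparison above. C3 fell by 1.15 ± 0.197 on the log2 scale (2.22-fold lower, edgeR adjusted p = 0.000915), and SLPI fell by 1.06 ± 0.176 (2.09-fold lower, edgeR adjusted p = 0.000732). Their order was not tested, and without combination replicate 3 it turned, with -1.45 ± 0.195 for C3 and -1.47 ± 0.0945 for SLPI. SAA2 had a log2 fold change of -0.71 ± 0.135 (edgeR adjusted p = 0.0017), SAA1 of -0.64 ± 0.12 (edgeR adjusted p = 0.00165) and C1R of -0.59 ± 0.141 (edgeR adjusted p = 0.00707). SERPINA3 had a read ratio of 0.423 (18 against 39 reads, exact 95% counting interval 0.228 to 0.757). Its edgeR adjusted p of 0.0203 became 0.164 with DESeq2, and it rose above 0.05 without DEX replicate 2 (0.0824), combination replicate 1 (0.0773) or combination replicate 2 (0.0525). C1S had a log2 fold change of -0.43 ± 0.218 (95% interval -0.896 to 0.0346, edgeR adjusted p = 0.161), and without combination replicate 3 it was -0.65 (adjusted p = 0.0487).

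**Figure D3:**
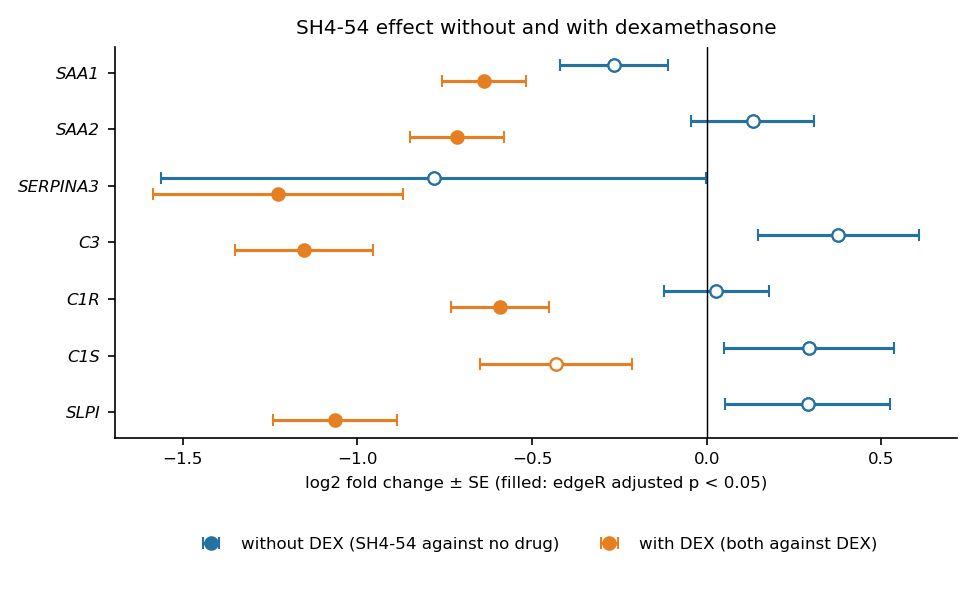
Log2 fold change ± standard error of the tested members for SH4-54 without DEX (blue) and with DEX (orange). Filled points have an edgeR adjusted p below 0.05: none of the blue points and 6 of the 7 orange points are filled. SERPINA3 is among the filled, and the count filter took it through its DEX wells alone.

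The effect of DEX in the presence of SH4-54 was taken from both compounds against SH4-54 alone. SAA1, SAA2, SERPINA3 and SLPI rose, 4 of 7, against 40.4% of all genes changed, 20.1% higher and 20.3% lower. SAA1 still rose 7.10-fold (log2 fold change 2.83 ± 0.142, edgeR adjusted p = 1.09e-09), SAA2 2.50-fold (1.32 ± 0.157, adjusted p = 9.62e-06) and SLPI 2.42-fold (1.28 ± 0.207, adjusted p = 0.000181). SERPINA3 had a read ratio of 5.50 (18 against 3 reads, exact 95% counting interval 1.61 to 29.2, edgeR adjusted p = 0.00783, DESeq2 adjusted p = 0.0527). Its fitted log2 fold change was 2.32, and 3.14 without SH4-54 replicate 1. The complement genes did not pass: C3 had a log2 fold change of 0.24 ± 0.218 (95% interval -0.223 to 0.71), C1S of 0.22 ± 0.232 and C1R of 0.13 ± 0.148. Without combination replicate 3 the values of C3, C1S and C1R were -0.047, 0.0008 and -0.066.

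**Figure D4:**
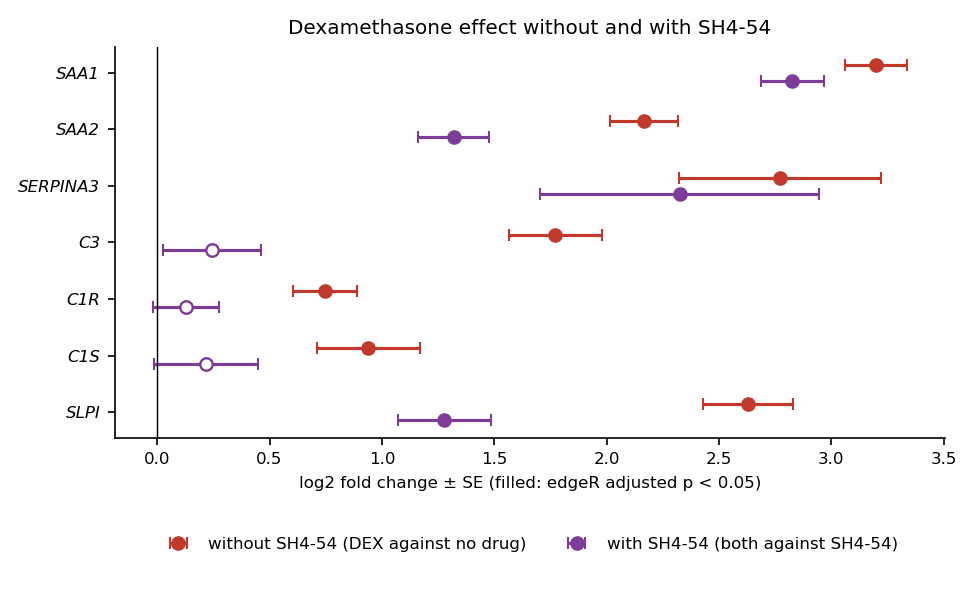
Log2 fold change ± standard error for DEX without SH4-54 (red) and with SH4-54 (purple). Filled points have an edgeR adjusted p below 0.05. All 7 red points are filled, that of SERPINA3 being favoured because the count filter took it through its DEX wells alone. The purple points of C3, C1R and C1S are open and near 0.

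Whether the DEX effect itself differed with SH4-54 was tested by the interaction of the treatments. C3, SLPI and SAA2 had a smaller rise on the log2 scale when SH4-54 was present, 3 of the 7 tested members, against 3.9% of all genes with an interaction, 2.44% positive and 1.46% negative. The interaction was -1.53 ± 0.304 for C3 (edgeR adjusted p = 0.0149), -1.35 ± 0.294 for SLPI (edgeR adjusted p = 0.0229) and -0.85 ± 0.222 for SAA2 (edgeR adjusted p = 0.0475). C3 kept its call in 18 of 18 alternative analyses, and SLPI lost it in 6 (adjusted p up to 0.0659), without replicate 2 or 3 of the no-drug, DEX or SH4-54 wells. SAA2 lost it in 11 (adjusted p up to 0.132), with the replicate block and without any 1 library other than SH4-54 replicate 1 or combination replicate 3. C1S (-0.72 ± 0.327, edgeR adjusted p = 0.22), C1R (-0.62 ± 0.206, adjusted p = 0.102) and SAA1 (-0.37 ± 0.196, adjusted p = 0.296, 95% interval -0.791 to 0.0455) did not pass. Without combination replicate 3, SAA1 (-0.57, adjusted p = 0.0195) and C1R (-0.82, adjusted p = 0.00971) did, so that 5 of 7 members passed. In that fit 14.3% of all genes had an interaction, 5.8% positive and 8.45% negative.

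The share of the DEX-driven rise in CPM that remained with SH4-54 describes the same 4 groups on the linear scale, with no test. It was 61.8% for SAA1, 46.4% for SAA2, 39.1% for SERPINA3, 32.6% for SLPI, 19.3% for C1S, 12.5% for C1R and 8.62% for C3. Without combination replicate 3 it was 53.6% for SAA1, 38.3% for SAA2, 32.1% for SERPINA3 and 19.9% for SLPI, and near 0 for C1S (0.859%), C1R (-5.6%) and C3 (-1.69%). The shares of the complement genes moved with other wells too, from 0.859% to 44.0% for C1S (highest without combination replicate 2, and 1.58% without SH4-54 replicate 1), up to 23.0% for C1R (without combination replicate 2) and up to 14.8% for C3 (without combination replicate 1). For the receptor targets FKBP5 and TSC22D3 it was 60.0% and 86.6% over all wells, and FKBP5 also had a negative interaction (-0.59 ± 0.148, edgeR adjusted p = 0.0397, and up to 0.104 with 1 library left out). Against no drug, both compounds together left SAA1 (log2 fold change 2.56 ± 0.137), SAA2 (1.45 ± 0.156), SLPI (1.57 ± 0.21), SERPINA3 (1.54 ± 0.532) and C3 (0.62 ± 0.223) higher, 5 of 7, with 42.7% of all genes changed, 21.1% higher and 21.6% lower. For C3 the edgeR adjusted p was 0.036, and it was 0.234 without combination replicate 3, 0.136 without no-drug replicate 2 and 0.125 without no-drug replicate 3. For SERPINA3 it was 0.0294, and above 0.05 without any 1 of the no-drug wells (0.065 to 0.0806) or without combination replicate 2 (0.0659) or 3 (0.137).

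Over the 12 libraries the tested members had pairwise Pearson correlations of log2 CPM from 0.61 to 0.979 (21 pairs, median 0.855). These points share treatment groups and library scaling, so they describe the group structure. By the same measure, among 12733 other genes, those most like SAA1 were MAOA (r = 0.996), a monoamine oxidase gene, RHOXF1-AS1 and IMPDH1. GLT8D1 (r = 0.994) was most like SAA2, and C21orf33 (r = 0.995) and MMD most like SLPI. The gene most like C3 was CXCL1 (r = 0.971), a neutrophil-attracting chemokine gene, with 1.90 ± 0.64 CPM without drug, 5.83 ± 0.836 with DEX, 2.26 ± 0.384 with SH4-54 and 3.07 ± 1.07 with both. LBP, the acute-phase gene for the lipopolysaccharide-binding protein, was most like C1R (r = 0.967), FAM228B most like C1S (r = 0.927), and ZNF18 most like SERPINA3 (r = 0.977).

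Of 46 other complement genes in 5 lists, 17 were tested, and 7 rose and 4 fell with DEX, with a median log2 fold change of 0.054, beside the 45.1% of all genes that changed. With both compounds against DEX, 4 rose and 5 fell, beside 26.6% of all genes. C1RL, a C1R-related protease gene, rose from 2.82 ± 0.355 to 6.14 ± 0.676 CPM (edgeR adjusted p = 9.96e-05) and fell with both compounds against DEX, to 3.85 ± 0.945 CPM (adjusted p = 0.0107, and 0.0506 without combination replicate 2). C5, from which the membrane attack complex starts, rose by 0.45 ± 0.117 on the log2 scale with DEX and fell by 0.46 ± 0.118 when SH4-54 was added. CFP, the gene of properdin, which stabilises the alternative-pathway convertase, rose by 0.44 ± 0.136, with an edgeR adjusted p of 0.0153 that passed 0.05 without no-drug replicate 2 (0.0576) or 3 (0.075) or DEX replicate 2 (0.0747). COLEC12 and ITGAX fell, and both had means below 1 CPM and passed the count filter only through wells without DEX, so that their fall is favoured by that choice. Of 9 tested complement regulators, C1QBP, C4BPB and CD46 rose and CD55 and CLU fell.

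Clusterin (CLU), an inhibitor of membrane attack, fell with DEX. It was at 45.4, 43.0 and 42.2 CPM without drug, 21.4, 22.6 and 20.8 with DEX, 44.3, 45.3 and 45.1 with SH4-54, and 41.0, 53.7 and 40.2 with both. Only the DEX wells were low, and the combination wells stood at the level of the wells without drug (DEX log2 fold change -1.01 ± 0.0875, edgeR adjusted p = 2.21e-07). Its interaction was 1.01 ± 0.121 (edgeR adjusted p = 0.000752). C4BPB, a chain of the C4b-binding protein, rose with DEX from 93.0 ± 3.73 to 121 ± 2.75 CPM and further with both, to 143 ± 11.1 CPM. CD46 (log2 fold change 0.27 ± 0.0484) and C1QBP (0.13 ± 0.0387) rose and CD55 (-0.19 ± 0.0458) fell with DEX, all 3 being regulators at the cell surface or within the cell. The edgeR adjusted p of C1QBP was 0.011, and 0.0596 without no-drug replicate 2. ITGB2, the shared chain of the complement receptor integrins, rose by 0.28 ± 0.0738 with DEX.

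Of 23 other acute-phase genes, 8 were tested, and FGA, FGB, LBP and LRG1 rose and AGT, ITIH4 and PTX3 fell with DEX (median log2 fold change 0.39; 45.1% of all genes changed). LRG1 passed the count filter only through its DEX wells and FGA only through wells with DEX, which favours their rise. With both compounds against DEX, FGB and PTX3 rose and LBP fell. FGA, the fibrinogen alpha chain, went from 0.125 ± 0.105 to 1.98 ± 0.104 CPM (log2 fold change 3.97 ± 0.485, edgeR adjusted p = 8.97e-06, and 4.85 without no-drug replicate 3). Its combination wells were at 0.855, 0.761 and 1.82 CPM, and the difference from DEX did not pass (adjusted p = 0.104). LBP was at 0.814, 0.696 and 0.492 CPM without drug, 3.37, 3.94 and 2.52 with DEX, and 0.622, 0.58 and 2.02 with both. It rose with DEX (log2 fold change 2.28 ± 0.37, edgeR adjusted p = 0.000138) and fell when SH4-54 was added (-1.53 ± 0.339, edgeR adjusted p = 0.00458). Without combination replicate 3 that fall was -2.46 ± 0.276 (edgeR adjusted p = 1.77e-05). FGB, the fibrinogen beta chain, rose with DEX (0.75 ± 0.206, edgeR adjusted p = 0.00769, and 0.0552 without DEX replicate 2) and rose further with both compounds (0.84 ± 0.178 against DEX, edgeR adjusted p = 0.00357). Of the genes that fell with DEX, ITIH4 went from 5.23 ± 1.55 to 2.81 ± 0.156 CPM (log2 fold change -0.90). AGT went from 3.20 ± 0.663 to 1.91 ± 0.166 CPM (-0.75). Both falls kept their call in 19 of 19 alternative analyses. The pentraxin gene PTX3 fell by 0.43 ± 0.0556 with DEX. Of 5 negative acute-phase genes, none had enough reads to be tested.

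Of 11 other protease inhibitor genes, 7 were tested, and SPINT1, CST3 and SERPINB1 rose and SPINT2 fell with DEX (median log2 fold change 0.23, with 45.1% of all genes changed). SPINT1, an inhibitor of hepatocyte growth factor activator, rose from 7.65 ± 1.1 to 14.7 ± 0.744 CPM. SERPINB1, an intracellular elastase inhibitor, rose by 0.23 ± 0.0721 and fell by 0.44 ± 0.0724 when SH4-54 was added. The edgeR adjusted p of its rise was 0.0156, and 0.0561 or 0.0559 without no-drug replicate 2 or 3. Of 26 genes for regulators of the acute phase, 23 were tested, and 10 rose and 7 fell with DEX (median log2 fold change 0.095; 45.1% of all genes changed), while 6 rose and 7 fell with both compounds against DEX (26.6% of all genes changed). CEBPB, a C/EBP factor gene, was at 19.6, 18.2 and 17.3 CPM without drug, 58.4, 55.5 and 60.4 with DEX, 18.9, 17.3 and 20.1 with SH4-54, and 58.4, 54.9 and 66.6 with both. It rose with DEX (1.66 ± 0.0743), and the wells with both compounds overlapped those with DEX alone (difference 0.05 ± 0.069, edgeR adjusted p = 0.643). CEBPD (1.35 ± 0.144) and the interleukin-6 receptor gene IL6R (1.26 ± 0.0876) rose with DEX too, and CEBPA fell by 1.63 ± 0.116. NR3C1, the glucocorticoid receptor gene, fell with DEX by 0.84 ± 0.0284, and its difference between both compounds and DEX did not pass (0.0047 ± 0.0284, edgeR adjusted p = 0.924). STAT3 was at 200 ± 2 CPM without drug, 228 ± 2.88 with DEX, 196 ± 4.9 with SH4-54 and 206 ± 13.3 with both.

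**Figure D5:**
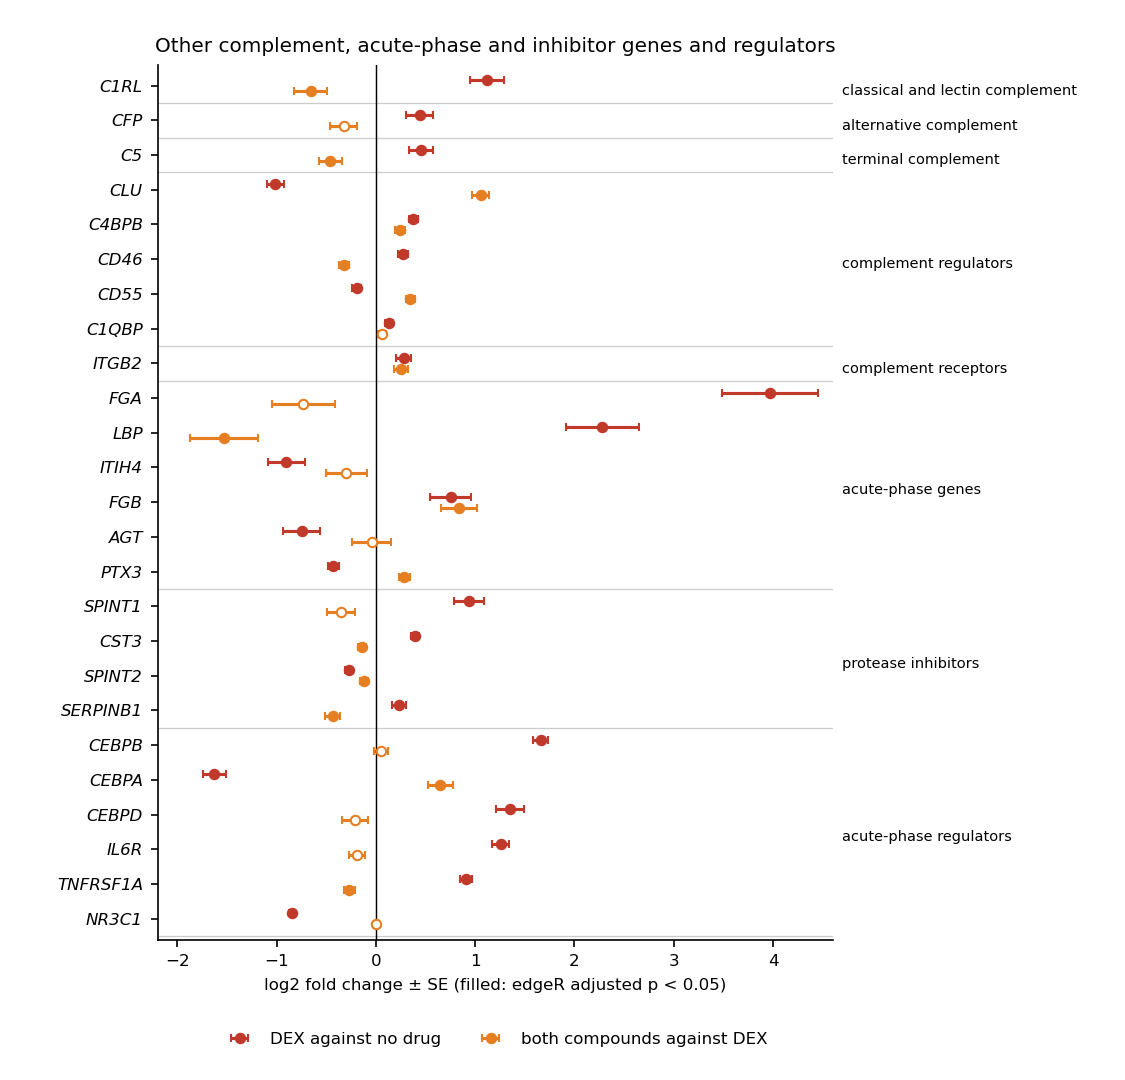
Log2 fold change ± standard error of other complement, acute-phase, inhibitor and regulator genes for DEX against no drug (red) and both compounds against DEX (orange), grouped by list. Filled points have an edgeR adjusted p below 0.05; CLU and CEBPA lie left of 0 in red and right of 0 in orange, while LBP and C1RL do the opposite.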

How the data were processed

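RNA from 12 wells was ribosome-depleted and sequenced as stranded 50-base single-end libraries, per the labels' protocols. Raw read counts per gene symbol were deposited by the authors as 1 table, aligned with HISAT2 2.1.0 and counted with featureCounts 1.5.1 (SAMtools and the build hg19, GRCh37, are also listed), per the submitters' processing notes. Which annotation and strand setting were used, and how reads with several matches were treated, is not stated by the sources used here. Overlapping genes and those with close copies are therefore uncertain. Titles gave the groups and replicate numbers, also where a treatment tag reads SH5-54 for the SH4-54 wells.

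The tests were run with edgeR 4.0.16 (limma 3.58.1) under R 4.3.3. Genes passing filterByExpr (14184 of 26364 rows; 4474 rows were 0 throughout) were scaled by TMM and fitted in 1 quasi-likelihood model of 4 groups, with 8 residual degrees of freedom and 6 contrasts. Benjamini-Hochberg adjustment ran over the whole tested set and calls were made below 0.05. Every adjusted p is edgeR's unless DESeq2 is named. A standard error is the log2 fold change divided by the root of the F statistic. For log2 CPM a prior count of 2 was added. The procedure was tested on simulated data. The members and lists were chosen with earlier results of these data known. The genes named from the lists were those that passed for DEX, both compounds against DEX or the interaction and averaged 1 CPM or more in some group, up to 6 a list by size of the DEX effect, and for each tested member the 3 most correlated genes could be named. COLEC12, ITGAX, LRG1, SOCS3, HSPA6 and STAT3, the target of SH4-54, were named outside this rule, after their values were seen. The share of the rise kept was also computed without each library, an alternative chosen after seeing the data. Some items that the rule takes are left out of the text. As alternatives, each library was left out in turn, edgeR was run with DESeq2 size factors, without its count filter, with a block for the replicate number, on only the groups compared and after dropping the 10 genes with the most reads, a tighter filter asked for 1 CPM in 3 libraries and 20 reads on average, and the Wald test of DESeq2 1.42.0 was run.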

Additional observations from a re-analysis of the deposited data

Results flagged for a closer look

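Of all genes tested, 3.9% had an interaction. The list genes were named by a rule that includes this test, so a count among them does not measure how common interactions were. For 10 of the members, named list genes and receptor targets, the effect of DEX differed between wells with and without SH4-54 by the interaction test (edgeR adjusted p below 0.05). Among the members these were C3 (interaction -1.53 ± 0.304 on the log2 scale, adjusted p = 0.0149), SLPI (-1.35 ± 0.294, 0.0229) and SAA2 (-0.85 ± 0.222, 0.0475), whose rise with DEX was smaller when SH4-54 was present. CD46 (-0.26 ± 0.0685, 0.046) and FKBP5 (-0.59 ± 0.148, 0.0397) had a smaller rise as well. C4BPB had a larger one (0.41 ± 0.0683, 0.00789). For CLU (1.01 ± 0.121, 0.000752), CEBPA (0.74 ± 0.161, 0.0226) and PTX3 (0.33 ± 0.0783, 0.0328) the fall with DEX was smaller with SH4-54 or did not pass there. CD55 (0.33 ± 0.0647, 0.0143) fell with DEX alone and had a log2 fold change of 0.14 ± 0.0458 for DEX in the presence of SH4-54 (adjusted p = 0.0253, and up to 0.131 with 1 library left out). Of these, CLU, C4BPB, CD55 and C3 passed in every alternative that gave a value, and the others did not. With 1 library left out the adjusted p reached 0.117 for CD46 (above 0.05 on leaving out any library except SH4-54 replicate 1 or combination replicate 3), 0.104 for FKBP5 (on leaving out any library except combination replicate 3), 0.093 for PTX3 (without no-drug replicate 2 or 3, any DEX well, SH4-54 replicate 2 or combination replicate 1 or 2) and 0.0638 for CEBPA (without no-drug replicate 1 or 2, DEX replicate 1 or 3, SH4-54 replicate 3 or combination replicate 1).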

How the results depend on the processing

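The DEX call of the members held in all alternatives that tested them (7 of 7, or 6 of 6 with the stricter filter, which drops SERPINA3 and leaves 12700 genes), and none passed for SH4-54 alone in any. The main count filter took SERPINA3 through its DEX wells alone, so its place in the counts for DEX and for both against DEX is no support. With 1 library left out, members called ranged from 7 to 7 for DEX, 0 to 0 for SH4-54, 5 to 7 for both against DEX, 4 to 4 for both against SH4-54, 3 to 5 for both against no drug and 1 to 5 for the interaction. The interaction count of 1 arose without replicate 2 or 3 of the no-drug, DEX or SH4-54 wells, and that of 5 without combination replicate 3. With the compared groups alone, 3 members passed for both against no drug, not 5. The interaction needs all 4 groups and has no such fit. Signs turned in 6 differences, none of which passed, and with 1 library left out they ranged as follows. For both against no drug C1R had -0.032 to 0.31. For both against SH4-54 C1R had -0.066 to 0.22 and C3 -0.047 to 0.38, all 3 lowest without combination replicate 3. For SH4-54 C1R had -0.092 (without no-drug replicate 3) to 0.18 and SAA2 -0.063 (without SH4-54 replicate 2) to 0.29. For the interaction SERPINA3 had -0.95 to 0.37 (without SH4-54 replicate 1). The cause was not tested. Genes called in all were 85 for SH4-54, 170 with DESeq2, 176 without filter, 155 with the compared groups alone and 26 to 163 with 1 library left out. For the interaction they were 553, 848 without filter and 204 to 2046, and for both against DEX 3770 and 2213 to 4633 (2213 without combination replicate 2).

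Replicate numbers did not pair the wells: over 18 pairs of same-numbered wells, deviations from the group means correlated from -0.0975 to 0.0926, and 2 of 12 libraries correlated best with their own number. With the replicate number as a block, members called were 7, 0, 6, 4, 5 and 2 in the 6 comparisons, the interaction of SAA2 (-0.86) having an adjusted p of 0.0604. Wells of a group always differed by more than counting noise, the smallest chi-square being 4.37 for each degree of freedom.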
